A study of Mus musculus with 12 samples.

Results

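The EGF family ligands and ErbB receptors were followed in ventricular RNA sequencing libraries of wild-type mice. The set holds 10 of the 55421 genes in the deposited count table and its members were found by gene symbol: the ligands Nrg1, Hbegf, Ereg, Btc, Areg and Tgfa, and the receptors Egfr, Erbb2, Erbb3 and Erbb4. The Ang II_FI group received angiotensin II from an osmotic minipump placed under the skin of the neck and Forsythoside I (FI), given at 50 mg/kg by intraperitoneal injection every other day through day 14, with a first dose ahead of pump placement. Mice of the Ang II group had the same hormone with vehicle in place of FI, and Con mice had saline and vehicle. Each group gave 4 libraries, all of WT genotype and of ventricular tissue, and no group received FI with saline, so that FI without the hormone was not measured. Neither the angiotensin II dose nor the age of the mice is stated in the sources used here.

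ErbB receptors are transmembrane tyrosine kinases that pair with each other once a ligand binds, and they feed the Ras-MAP kinase and PI3 kinase pathways. ErbB2 has no known soluble ligand and acts as a partner, while ErbB3 has a weak kinase and signals through its partners. The ligands are made as membrane-anchored precursors and are released by metalloproteases of the ADAM family. In the heart, neuregulin 1 from endothelial cells acts on ErbB4 and ErbB2 of cardiomyocytes and is known for its part in heart development and in keeping the adult muscle working. Angiotensin II is known to release HB-EGF through its type 1 receptor and so to activate EGFR, and this is the background against which the 3 groups were compared.

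RefSeq promoter windows (GRCm38.p6) were found for 6 of the 10 genes, Btc, Areg, Tgfa, Egfr, Erbb2 and Erbb4, and were read over the 250 bases before each start. Those of Egfr and Btc are shown because the libraries of some groups did not overlap for these genes, and that of Areg because it held the only CRE match in the set. Capitals mark matches, on either strand, to the AP-1 motif TGANTCA, the CRE motif TGACGTCA or the GC box GGGCGG, which share no base with each other in these windows.
Egfr (chr11:16751953-16752202, plus strand): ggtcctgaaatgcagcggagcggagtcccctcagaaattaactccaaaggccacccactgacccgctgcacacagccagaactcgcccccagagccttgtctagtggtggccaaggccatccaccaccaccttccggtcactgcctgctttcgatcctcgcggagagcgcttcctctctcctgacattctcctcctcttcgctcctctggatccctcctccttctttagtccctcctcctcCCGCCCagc
Btc (chr5:91402995-91403244, minus strand): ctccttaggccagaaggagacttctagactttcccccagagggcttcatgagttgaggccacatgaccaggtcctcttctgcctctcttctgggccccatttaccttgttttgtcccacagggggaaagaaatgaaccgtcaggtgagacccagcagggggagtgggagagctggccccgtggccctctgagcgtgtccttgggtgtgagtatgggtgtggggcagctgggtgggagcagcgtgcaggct
Areg (chr5:91139349-91139598, plus strand): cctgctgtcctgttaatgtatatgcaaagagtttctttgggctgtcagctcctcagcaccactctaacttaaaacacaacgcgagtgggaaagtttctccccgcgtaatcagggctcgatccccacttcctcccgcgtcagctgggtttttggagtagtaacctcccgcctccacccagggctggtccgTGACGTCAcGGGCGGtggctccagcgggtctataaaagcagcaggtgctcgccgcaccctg
The Egfr window held 1 GC box, the Btc window none of the 3 motifs, and the Areg window 1 CRE and 1 GC box. No AP-1 match lay in any of the 6 windows, and the Tgfa window held 2 GC boxes while those of Erbb2 and Erbb4 held no match. Of 32851 RefSeq promoter windows of this length, 6.75% held the AP-1 motif, 1.55% the CRE and 32.7% the GC box. These matches describe letters and not binding.

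The 12 libraries held 68874852 to 80624227 counts, so that 3 counts correspond to 0.0372 to 0.0436 CPM (counts scaled to a common library total), a floor that covers counting error only. Between 29.1% and 38.8% of the counts fell on mitochondrially encoded genes. The 8 cardiomyocyte markers (Myh6 and others) summed to between 28054 and 40047 CPM in every library, so markers of the labelled tissue were abundant. Ang II_FI library 3 stood apart: 15 hepatocyte markers, all of them detected there, summed to 24333 CPM in it. They took 2.43% of its total, and summed to 5.50 to 8.84 CPM in Ang II_FI libraries 1, 2 and 4, 4.56 to 42.0 CPM in Ang II and 3.62 to 8.78 CPM in Con. The 42.0 CPM belonged to Ang II library 3. Albumin (Alb) alone had 14480 CPM in Ang II_FI library 3 and 0 to 17.1 CPM in the other 11. The members are therefore described with and without Ang II_FI library 3.

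The most abundant ligand per exon length was Hbegf and the most abundant receptor Erbb3. Per kilobase of exon (CPM per kb), Hbegf averaged 3.27 ± 0.274 in Ang II_FI, 3.04 ± 0.253 in Ang II and 2.09 ± 0.186 in Con (SD, n = 4 each), and Erbb3 averaged 1.77 ± 0.210 in Ang II and 1.75 ± 0.428 in Con. In Con the descending order went on with Erbb2 (1.09 CPM per kb), Erbb4 (0.604), Btc (0.493), Egfr (0.333), Nrg1 (0.0994), Tgfa (0.0419), Ereg (0.0104) and Areg, which had no count. Neighbours in that order shared part of their range over libraries, except Erbb2 and Erbb4, and Egfr and Nrg1, whose ranges were separate. In Ang II the order was Hbegf, Erbb3, Erbb2, Egfr (0.555 CPM per kb), Erbb4 (0.537), Btc (0.275), Tgfa (0.0970), Ereg (0.0918), Nrg1 (0.0302) and Areg (0.0178). In mean level Egfr thus stood above Erbb4 and Btc in Ang II and below both in Con, although the Egfr and Erbb4 ranges overlapped in Ang II. In Ang II_FI without library 3, Egfr (0.283 CPM per kb) lay below Erbb4 (0.471) with no shared value.

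**Figure D1:**
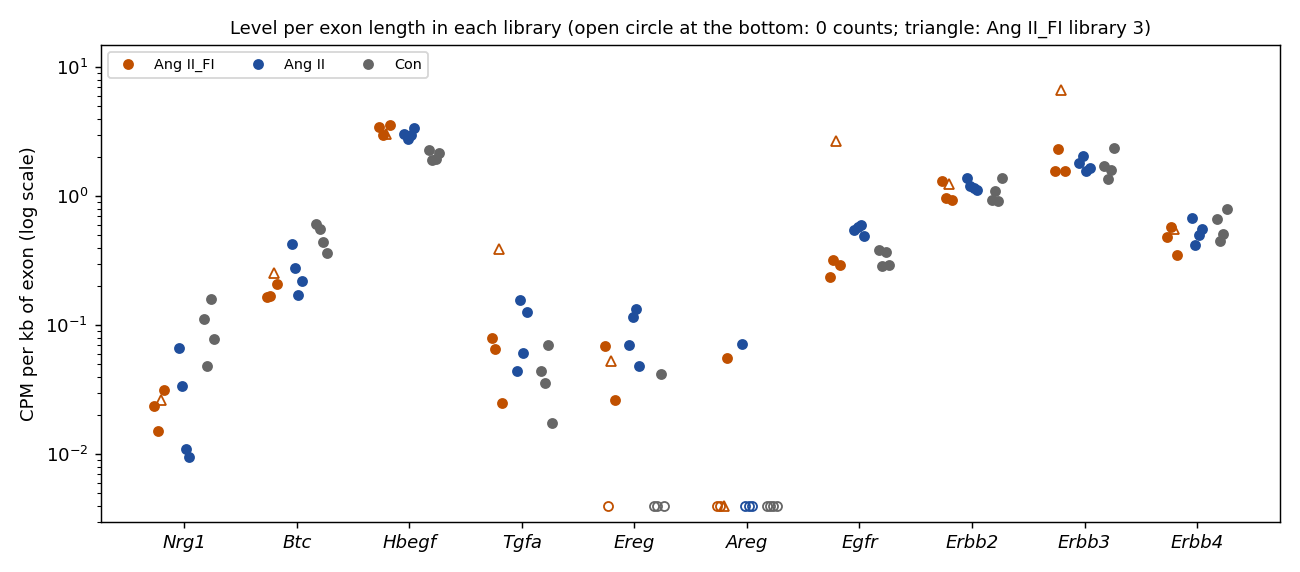
Level of the 10 genes per exon length in each library, in CPM per kilobase on a log scale, with Ang II_FI left, Ang II in the middle and Con right. Open circles at the bottom stand for 0 counts and the triangle is Ang II_FI library 3. Hbegf, Erbb3 and Erbb2 lie highest, Ereg and Areg reach 0, and the triangle stands far above the other Ang II_FI points for Egfr, Erbb3 and Tgfa.

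Of the 10 genes, 9 passed the low-count filter (all but Areg) and were tested within edgeR's quasi-likelihood fit of 17376 genes, with Benjamini-Hochberg adjustment over all of them and a threshold of 0.05. Hbegf was higher in Ang II against Con, 1 of the 9, and 0 were lower, where 2.23% of all tested genes were called (273 higher, 1.57%, and 115 lower, 0.662%). With library totals in place of TMM (trimmed mean of M values) scaling, that split was 261 higher and 57 lower. Between Ang II_FI and Ang II, 0 of the 9 and 0% of all genes were called by edgeR, 0 of the 9 and 1729 of all genes (9.95%) having an unadjusted p under 0.05, while limma-voom called 0 genes and DESeq2 called 42, none of them of the set. DESeq2 returned no p-value for Egfr in any comparison, and no adjusted p for Ereg in either comparison against Con. Against Con, Ang II_FI again differed in Hbegf, the 1 gene called of the 9, where 0.978% of all genes were called (125 higher, 0.719%, and 45 lower, 0.259%). With Ang II_FI library 3 left out, 17702 genes were tested: Hbegf and Egfr were called higher in Ang II against Con (3.86% of all genes called, 2.49% higher and 1.37% lower), none of the 9 in Ang II_FI against Ang II (0.00565%), and Hbegf in Ang II_FI against Con (1.24%, of which 0.932% higher and 0.311% lower). In that fit 5 of the 9 had an unadjusted p under 0.05 in Ang II against Con, 1 in Ang II_FI against Ang II and 3 in Ang II_FI against Con, where 18.8%, 7.93% and 15.7% of all genes had one. With all 12 libraries 4 of the 9 had one in Ang II against Con and 5 in Ang II_FI against Con, where 16.8% and 17.3% of all genes had one.

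Hbegf, which encodes heparin-binding EGF-like growth factor, a ligand of EGFR and ErbB4, rose under angiotensin II, and its values with FI added ran through those with the hormone alone. It had 16.8, 14.6, 14.8 and 17.1 CPM in Ang II_FI libraries 1 to 4, 14.6, 13.5, 14.3 and 16.4 CPM in the Ang II libraries, and 11.1, 9.25, 9.42 and 10.5 CPM in the Con libraries. All 8 libraries with angiotensin II lay above all 4 Con libraries. The means were 15.8 ± 1.32, 14.7 ± 1.23 and 10.1 ± 0.897 CPM (SD, n = 4 each), or 1.57 times Con in Ang II_FI and 1.46 times Con in Ang II. On the log2 scale Hbegf rose by 0.53 ± 0.12 in Ang II against Con (SE, edgeR adjusted p = 0.0381) and by 0.70 ± 0.12 in Ang II_FI against Con (edgeR adjusted p = 0.0201), comparisons that share the Con libraries. The difference of Ang II_FI from Ang II was 0.17 ± 0.11 (edgeR adjusted p = 0.644), with a range of 2 SE either way from -0.06 to 0.40. Without Ang II_FI library 3 the values were 0.52 ± 0.11, 0.75 ± 0.12 and 0.23 ± 0.12 (edgeR adjusted p = 0.0270, 0.0141 and 0.660, in the order just used).

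The calls of Hbegf depended on which libraries were in the fit. In Ang II against Con, Hbegf stayed past the threshold when Con 1, Ang II_FI 1 or Ang II_FI 3 was left out. It lost its call without each of the other 9 libraries. Over these 12 fits its log2 fold changes were 0.46 to 0.60, with edgeR adjusted p up to 0.118. Among the 9 libraries were Ang II_FI 2 and Ang II_FI 4, which are outside this comparison. With either of them left out the log2 fold change was 0.526. Calls among all tested genes ran from 90 to 683 over the same 12 fits, against 388 with all libraries. Against Con in Ang II_FI, Hbegf kept the call in 7 of 12 such fits and lost it without Con 2, Con 3, Con 4, Ang II_FI 1 or Ang II_FI 4, with log2 fold changes of 0.65 to 0.78 and edgeR adjusted p up to 0.0722. Macrophage markers were also higher in both groups than in Con. Their 8 genes summed to 223 to 259 CPM in Ang II_FI, 256 to 280 CPM in Ang II and 153 to 193 CPM in Con, with none at 0. Of these, 4 of 8 were called higher in Ang II against Con and 2 of 8 in Ang II_FI against Con. The shares of all tested genes called higher were 1.57% and 0.719%. In Ang II_FI against Ang II, where Hbegf lay above 0, 8 of the 8 macrophage markers lay below 0 (7 without Ang II_FI library 3), and 0 were called. Their part in the Hbegf difference was not tested. In whole-tissue RNA, a change in how many cells of a type there are and a change in RNA per cell cannot be told apart.

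Nrg1 (neuregulin 1, the ligand of ErbB3 and ErbB4) and Btc (betacellulin, a ligand of EGFR and ErbB4) were the ligands with lower values under angiotensin II. Nrg1 had 0.244, 0.156, 0.275 and 0.327 CPM in Ang II_FI libraries 1 to 4, 0.690, 0.348, 0.113 and 0.0992 CPM in Ang II, and 1.16, 0.504, 1.65 and 0.806 CPM in Con, from 8 to 115 counts a library. The Ang II_FI libraries all lay below the Con libraries, and 1 Ang II library lay above the lowest Con library. Its log2 fold change was -1.77 ± 0.58 in Ang II against Con (SE, edgeR adjusted p = 0.134) and -1.98 ± 0.58 in Ang II_FI against Con (edgeR adjusted p = 0.115), neither past the threshold. DESeq2 put both past it (adjusted p = 0.0426 and 0.0247). Neither passed edgeR's threshold without Ang II_FI library 3 (adjusted p = 0.119 and 0.163). Between Ang II_FI and Ang II the log2 fold change of Nrg1 was -0.22 ± 0.58 (edgeR adjusted p = 0.936), and it was -0.23 ± 0.65 without Ang II_FI library 3, 0.48 without Ang II library 1 and 0.16 by limma-voom.

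Btc had 0.745, 0.764, 1.15 and 0.939 CPM in Ang II_FI libraries 1 to 4, 1.94, 1.26, 0.776 and 0.992 CPM in Ang II, and 2.75, 2.54, 1.99 and 1.64 CPM in Con. The Ang II_FI libraries were all below the Con libraries, whereas Ang II library 1 reached into the Con range. The log2 fold changes of Btc were -0.88 ± 0.28 in Ang II against Con (SE, edgeR adjusted p = 0.120), -1.27 ± 0.28 in Ang II_FI against Con (edgeR adjusted p = 0.0531) and -0.39 ± 0.28 in Ang II_FI against Ang II (edgeR adjusted p = 0.673). DESeq2 placed the first pair past the threshold (adjusted p = 0.0499 and 0.00273), and edgeR did so for Ang II_FI against Con without Ang II library 1 (adjusted p = 0.0407). Leaving out Ang II_FI library 3, the Btc value was -1.38 ± 0.31 for Ang II_FI against Con, -0.49 ± 0.31 for Ang II_FI against Ang II and -0.89 ± 0.28 for Ang II against Con (edgeR adjusted p = 0.0539, 0.711 and 0.0968). Groups did not overlap, with Ang II_FI lower than Con, for Nrg1 and Btc, 2 of the 10 genes, as for 6.06% of all tested genes, and with Ang II_FI higher for Hbegf, as for 3.52%. Those shares of all tested genes were 11.1% and 4.76% without Ang II_FI library 3.

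Tgfa, Ereg and Areg, ligands that all bind EGFR, had few counts, with 8 to 186 for Tgfa, 0 to 39 for Ereg and 0 to 6 for Areg in a library. Tgfa (transforming growth factor alpha) had 0.516, 0.424, 2.55 and 0.163 CPM in Ang II_FI libraries 1 to 4, 0.288, 1.02, 0.395 and 0.819 CPM in Ang II, and 0.286, 0.231, 0.458 and 0.113 CPM in Con. The high value is that of Ang II_FI library 3, and the other libraries of the 3 groups overlapped. The log2 fold change of Tgfa in Ang II_FI against Con was 1.74 ± 0.75 with that library and 0.51 ± 0.60 without it, and in Ang II_FI against Ang II it was 0.55 ± 0.72 with it and -0.68 ± 0.60 without it (SE, edgeR adjusted p = 0.260, 0.743, 0.851 and 0.795). In Ang II against Con it was 1.19 ± 0.75 (edgeR adjusted p = 0.481, and 0.273 without Ang II_FI library 3).

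Ereg (epiregulin, which also binds ErbB4) was counted 20, 0, 16 and 8 times in Ang II_FI libraries 1 to 4, 20, 33, 39 and 16 times in Ang II, and 0, 0, 12 and 0 times in Con. All Ang II libraries lay above all Con libraries, and the Ang II_FI libraries reached into both ranges. Means were 0.154 ± 0.126 CPM in Ang II_FI, 0.379 ± 0.164 CPM in Ang II and 0.0429 ± 0.0859 CPM in Con (SD, n = 4 each), the last at the floor of 3 counts. No difference of Ereg passed edgeR's threshold (adjusted p = 0.241 in Ang II against Con, 0.494 in Ang II_FI against Con and 0.761 in Ang II_FI against Ang II). None did without Ang II_FI library 3 (edgeR adjusted p = 0.217, 0.609 and 0.806). Areg (amphiregulin) had 5 counts in Ang II_FI library 4, 6 counts in Ang II library 1 and 0 in the remaining 10 libraries, and no difference was detectable at this depth. Counts this low need care, since 33.9% to 36.6% of values from 1 to 40 in each library were multiples of 4, against 25% if they were evenly spread. The same care applies to the Nrg1 and Tgfa counts within that range.

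**Figure D2:**
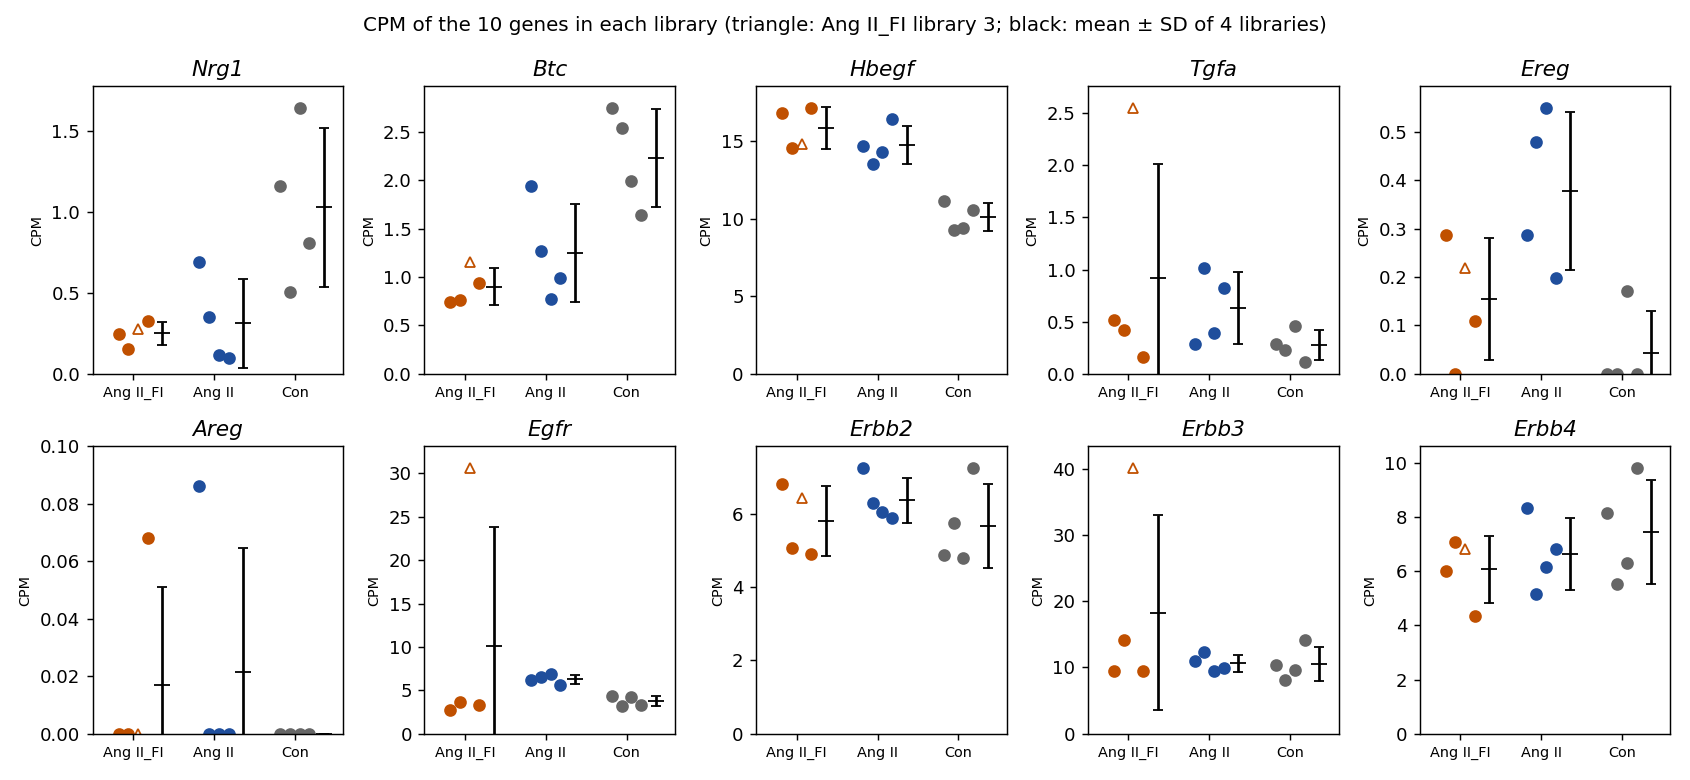
CPM of the 10 genes in each library, with Ang II_FI left, Ang II in the middle and Con right. Points are libraries, the triangle is Ang II_FI library 3, and the black bar is the mean ± SD of 4 libraries (drawn down to 0 where the SD exceeds the mean). All Hbegf points with angiotensin II lie above Con, and the Egfr points of Ang II form a group of their own at 5.61 to 6.83 CPM.

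Egfr, the receptor for HB-EGF, betacellulin, epiregulin, amphiregulin and TGF-alpha, was higher in Ang II than in Con and, apart from Ang II_FI library 3, had values overlapping those of Con when FI was added. It had 2.69, 3.62, 30.7 and 3.29 CPM in Ang II_FI libraries 1 to 4, 6.19, 6.50, 6.83 and 5.61 CPM in Ang II, and 4.37, 3.24, 4.18 and 3.30 CPM in Con. The 4 Ang II libraries lay above all Con libraries and above Ang II_FI libraries 1, 2 and 4, while Ang II_FI library 3 exceeded every other library. Means were 3.20 ± 0.471 CPM in Ang II_FI without library 3 (SD, n = 3), 6.28 ± 0.520 CPM in Ang II and 3.77 ± 0.585 CPM in Con (SD, n = 4 each), and with library 3 the Ang II_FI mean was 10.1 ± 13.7 CPM. The log2 fold change in Ang II against Con was 0.72 ± 0.63 with all 12 libraries (SE, edgeR adjusted p = 0.649), where Ang II_FI library 3 enters the shared estimate of spread, and Egfr rose by 0.71 ± 0.16 without that library (edgeR adjusted p = 0.0294). With the Ang II and Con libraries alone in the fit Egfr was also past the threshold (edgeR adjusted p = 0.0398). It was not past it without Ang II library 3 and Ang II_FI library 3 together (0.64 ± 0.17, edgeR adjusted p = 0.0857).

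The Egfr log2 fold change in Ang II_FI against Ang II was 0.68 ± 0.63 with all libraries (SE, edgeR adjusted p = 0.759) and -0.88 ± 0.17 without Ang II_FI library 3 (unadjusted p = 2.6e-04 by edgeR's quasi-likelihood test, adjusted p = 0.526), so the direction turned with that library and no call was made either way. Against Con it was 1.40 ± 0.64 with all libraries (edgeR adjusted p = 0.286) and -0.16 ± 0.17 without library 3 (edgeR adjusted p = 0.705), with a range of 2 SE without that library running from -0.51 to 0.18. The comparisons share the Ang II libraries or the Con libraries, so their values are not independent. Groups did not overlap, with Ang II higher than Con, for Hbegf, Ereg and Egfr, 3 of the 10 genes, as for 7.74% of all tested genes, and 0 genes of the set were wholly lower (4.56% of all tested genes). No member's groups in Ang II_FI against Ang II were apart with all libraries (0.858% of all tested genes wholly higher and 5.12% wholly lower), and without library 3 Egfr was wholly lower, as were 9.99% of all tested genes (1.32% wholly higher). These shares are of CPM over library totals, and TMM factors were 0.948 to 0.954 in Ang II_FI libraries 1, 2 and 4, 0.958 to 1.07 in Ang II and 0.956 to 1.04 in Con.

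Markers of vascular and stromal cells, and of cardiomyocytes, are given beside Egfr. The 8 endothelial markers summed to 549 to 657 CPM in Ang II_FI, 696 to 945 CPM in Ang II and 504 to 809 CPM in Con, and the 8 smooth muscle and pericyte markers to 779 to 910, 970 to 1107 and 775 to 977 CPM in the same groups, with none at 0. The sums of Ang II and Con overlapped for both lists, while those of Ang II_FI all lay below those of Ang II. In Ang II_FI against Ang II without Ang II_FI library 3, 8 of 8 endothelial and 7 of 8 smooth muscle and pericyte markers had log2 fold changes below 0. With all libraries these were 8 of 8 in both lists, and 0 were called in either fit. In Ang II against Con 0 of 8 and 1 of 8 were called higher with all libraries, where 1.57% of all tested genes were. The 7 fibroblast markers summed to 1925 to 2013 CPM in Ang II_FI, 2026 to 2296 CPM in Ang II and 1559 to 2108 CPM in Con. In Ang II against Con 2 of 7 were called higher (3 of 7 without Ang II_FI library 3). The shares of all tested genes called higher in these fits were 1.57% and 2.49%. The fibroblast sums of Ang II_FI also all lay below those of Ang II. In Ang II_FI against Ang II 5 of the 7 were below 0 in both fits, and 0 were called. The 8 cardiomyocyte markers went the other way in that comparison. All 8 lay above 0 in both fits, with medians of 0.18 with all libraries and 0.26 without Ang II_FI library 3, and 0 were called. The part of these cells in the Egfr values was not tested.

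Erbb2, Erbb3 and Erbb4 showed no called difference in any comparison. Erbb2, the partner receptor, had 6.82, 5.07, 6.44 and 4.91 CPM in Ang II_FI libraries 1 to 4, 7.25, 6.30, 6.05 and 5.88 CPM in Ang II, and 4.87, 5.74, 4.80 and 7.26 CPM in Con. Erbb4, the neuregulin receptor of cardiomyocytes, had 6.02, 7.09, 6.84 and 4.36 CPM in Ang II_FI, 8.36, 5.17, 6.18 and 6.83 CPM in Ang II, and 8.17, 5.53, 6.33 and 9.83 CPM in Con. The groups overlapped throughout for both genes. In Ang II against Con the log2 fold changes were 0.15 ± 0.16 for Erbb2 and -0.20 ± 0.21 for Erbb4 (SE, edgeR adjusted p = 0.718 and 0.727), with ranges of 2 SE from -0.16 to 0.46 and from -0.62 to 0.23. Between Ang II_FI and Ang II they were -0.07 ± 0.16 and -0.06 ± 0.21 (edgeR adjusted p = 0.926 and 0.951), with ranges from -0.38 to 0.25 and from -0.48 to 0.36. Against Con, Ang II_FI differed by 0.08 ± 0.16 for Erbb2 and by -0.26 ± 0.21 for Erbb4 (edgeR adjusted p = 0.838 and 0.584). Without Ang II_FI library 3 the Erbb2 values in these comparisons were 0.15 ± 0.16, -0.09 ± 0.17 and 0.06 ± 0.17. The Erbb4 values were -0.20 ± 0.21, -0.09 ± 0.23 and -0.29 ± 0.23. None was called by edgeR (smallest adjusted p = 0.594).

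Erbb3, which binds neuregulins, had 9.40, 14.1, 40.1 and 9.49 CPM in Ang II_FI libraries 1 to 4, 10.9, 12.3, 9.46 and 9.90 CPM in Ang II, and 10.3, 8.16, 9.55 and 14.2 CPM in Con. Apart from the 40.1 CPM of Ang II_FI library 3, the groups overlapped. The log2 fold change of Erbb3 in Ang II_FI against Ang II was 0.81 ± 0.38 with that library and 0.15 ± 0.19 without it, and in Ang II_FI against Con 0.80 ± 0.38 with it and 0.13 ± 0.19 without it (SE, edgeR adjusted p = 0.504, 0.880, 0.299 and 0.797). In Ang II against Con it was -0.01 ± 0.37 (edgeR adjusted p = 0.995) with a range of 2 SE from -0.76 to 0.74, which narrowed to -0.37 to 0.34 without Ang II_FI library 3.

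A trio of the set stood out in the library with hepatocyte transcripts. Egfr, Erbb3 and Tgfa in Ang II_FI library 3 were 9.31, 4.23 and 6.02 times the median of the other Ang II_FI libraries, and 4.49, 2.83 and 2.51 times the highest of the other 11 libraries. Egfr and Erbb3 are, as background, receptors of hepatocytes. For Nrg1, Hbegf, Btc, Ereg, Areg, Erbb2 and Erbb4 the same library lay within the range of the other 11. In Ang II library 3, with its smaller sum of hepatocyte markers, Egfr was the highest of the 4 Ang II libraries, Erbb3 the lowest and Tgfa the third. What part hepatocyte RNA has in these values was not tested.

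**Figure D3:**
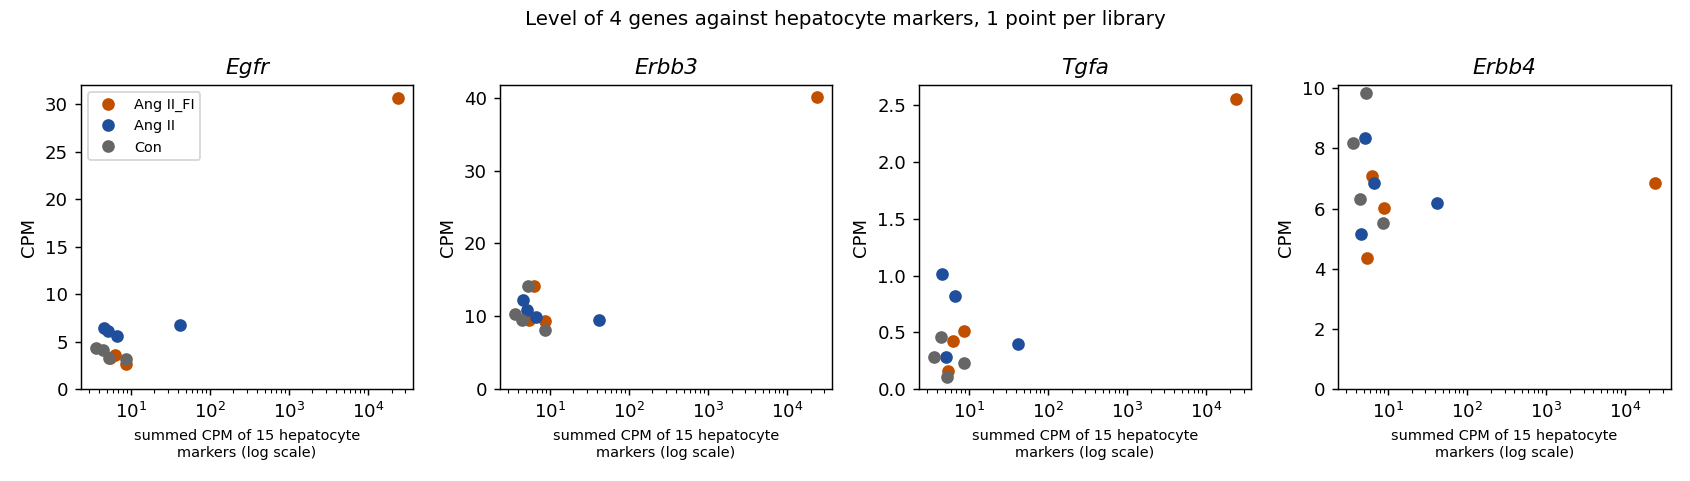
CPM of Egfr, Erbb3, Tgfa and Erbb4 against the summed CPM of 15 hepatocyte markers on a log scale, 1 point per library. Ang II_FI library 3, at 24333 CPM of markers, is far above the others for Egfr, Erbb3 and Tgfa and among them for Erbb4.

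The 9 tested genes had a median log2 fold change of 0.15 in Ang II against Con, with 5 above and 4 below 0, where the median of all tested genes was 0.005. For Ang II_FI against Ang II the median was -0.06 (4 above and 5 below), against 0.02 for all genes, and in Ang II_FI against Con 0.70 (6 above and 3 below), against 0.02 for all genes. After omission of Ang II_FI library 3 the medians of its group were -0.23 against Ang II and 0.06 against Con. In Ang II against Con, Hbegf, Tgfa, Ereg, Egfr and Erbb2 had values above 0 and Nrg1, Btc, Erbb3 and Erbb4 below 0. Hbegf alone was called by edgeR with all libraries, so that fit does not show opposite movement within the set.

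**Figure D4:**
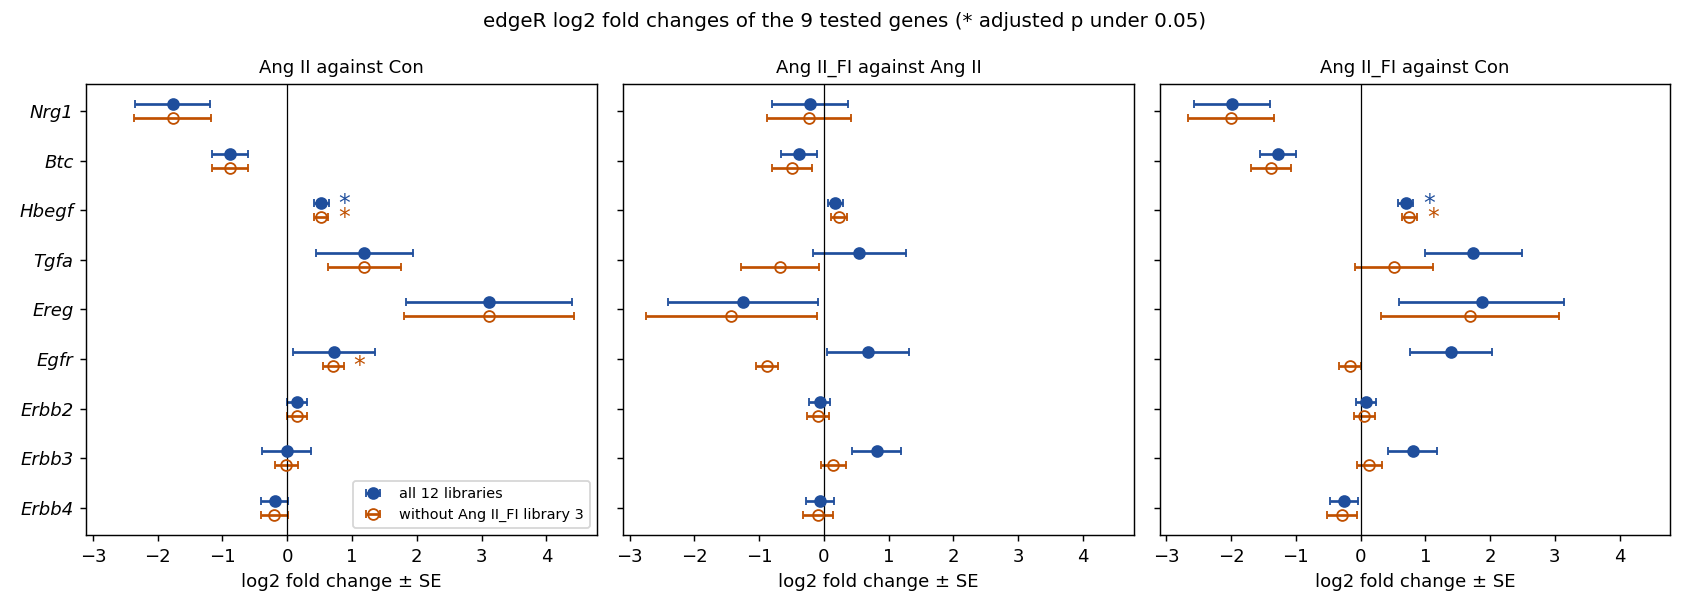
Log2 fold changes with standard errors of the 9 tested genes by edgeR, with all 12 libraries (filled) and without Ang II_FI library 3 (open), in 3 comparisons. Stars mark an adjusted p under 0.05, which Hbegf reached against Con in both groups, and Egfr in Ang II against Con when the library was left out. The Egfr values in both Ang II_FI comparisons change sign between the fits.

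Around the receptors, 69 genes of the pathway were followed in 6 lists, of which 67 were tested. With all libraries 0 of the 67 were called in any of the 3 comparisons by edgeR, while 18, 12 and 22 had an unadjusted p under 0.05 in Ang II against Con, Ang II_FI against Ang II and Ang II_FI against Con, where 16.8%, 9.95% and 17.3% of all tested genes had one. When Ang II_FI library 3 was left out, 2 of the 67 were called, both higher in Ang II against Con, where 3.86% of all tested genes were called and 2.49% were called higher. The count of called genes is thus no result about the pathway. The shares of the 67 with an unadjusted p under 0.05 lay above those of all tested genes in each comparison with all libraries. The lists were chosen with earlier results of these data known, and the difference in shares was not tested. The first was Adam12, a metalloprotease that can release HB-EGF, with 1.15, 0.439, 1.10 and 0.259 CPM in Ang II_FI, 1.14, 0.653, 1.27 and 1.34 CPM in Ang II, and 0.258, 0.432, 0.272 and 0.184 CPM in Con. The Ang II values of Adam12 lay above the Con values, and it rose by 1.92 ± 0.48 on the log2 scale (SE, edgeR adjusted p = 0.0454 without that library and 0.0601 with it). The second was Nras, a Ras GTPase, with 23.0, 21.6, 4.48 and 22.5 CPM in Ang II_FI, 27.9, 29.2, 23.2 and 28.9 CPM in Ang II, and 19.6, 21.6, 20.6 and 21.4 CPM in Con. Nras rose by 0.37 ± 0.08 in Ang II against Con without Ang II_FI library 3 (edgeR adjusted p = 0.0284, against 0.701 with it), and that library was its lowest.

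Of 10 ligand sheddases and their regulators, 6 had values above 0 and 4 below in Ang II against Con, with a median log2 fold change of 0.16. Adam10, a sheddase of betacellulin, had -0.25 ± 0.09 in Ang II_FI against Con (SE, edgeR adjusted p = 0.166), and Adam19, which can cleave neuregulin, had -0.54 ± 0.30 in Ang II_FI against Ang II (edgeR adjusted p = 0.567). Of 7 receptor and ligand partners, Cd44, which can anchor HB-EGF, averaged 7.37 ± 1.19 CPM in Ang II_FI, 7.72 ± 0.522 CPM in Ang II and 4.86 ± 1.28 CPM in Con (SD, n = 4 each), and Cd9, a tetraspanin partner of the HB-EGF precursor, averaged 31.9 ± 1.71, 39.7 ± 3.44 and 29.9 ± 5.00 CPM in the same groups. The log2 fold changes in Ang II against Con were 0.66 ± 0.19 for Cd44 and 0.39 ± 0.12 for Cd9 (edgeR adjusted p = 0.0989 and 0.115), with all Ang II libraries above all Con libraries for both. Among 4 tested other ligands, Egf averaged 4.15 ± 1.18 CPM in Ang II_FI, 5.10 ± 1.33 CPM in Ang II and 6.71 ± 1.57 CPM in Con, and its log2 fold change in Ang II_FI against Con was -0.65 ± 0.24 (edgeR adjusted p = 0.187). Epgn (epigen) stayed under 0.349 CPM in every library, with 0 in 3 of 4 Con libraries.

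In the 17 feedback inhibitors, genes that restrain ErbB or Ras signalling, 12 had values below 0 in Ang II_FI against Ang II and 14 in Ang II_FI against Con, with medians of -0.14 and -0.16, against 0.02 for all tested genes in both. Without Ang II_FI library 3 these were 14 and 17 of 17, with medians of -0.27 and -0.20, against -0.003 and -0.008 for all tested genes, and 0 of 17 were called in any of these fits. Medians of the endothelial and the smooth muscle and pericyte markers in Ang II_FI against Ang II were -0.29 and -0.25 in the same fit, and their part in the inhibitors' values was not tested. Spry1 (Sprouty 1) had 28.1, 25.0, 27.4 and 25.6 CPM in Ang II_FI, 40.3, 36.1, 31.4 and 37.6 CPM in Ang II, and 30.2, 32.3, 35.7 and 29.2 CPM in Con. All Ang II_FI values of Spry1 were below all others. Its log2 fold change in Ang II_FI against Ang II was -0.38 ± 0.08 (SE, unadjusted p = 3.8e-04 by edgeR's quasi-likelihood test, adjusted p = 0.411), and -0.37 ± 0.09 without Ang II_FI library 3. Spry4 (Sprouty 4) had 10.3 to 11.1 CPM in Ang II_FI, 12.6 to 21.7 CPM in Ang II and 13.6 to 25.3 CPM in Con, with a log2 fold change of -0.75 ± 0.18 in Ang II_FI against Con (edgeR adjusted p = 0.0672). Lrig1, which lowers ErbB receptor protein, had -0.20 ± 0.08 in Ang II against Con (edgeR adjusted p = 0.216).

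Errfi1, which encodes the EGFR inhibitor Mig6, was singled out after its values had been seen. It had 16.2, 15.5, 359 and 14.7 CPM in Ang II_FI libraries 1 to 4, 50.7, 22.3, 20.0 and 38.8 CPM in Ang II, and 22.9, 29.5, 37.5 and 34.0 CPM in Con. Ang II_FI libraries 1, 2 and 4 were the lowest of all 12 and library 3 the highest. Its log2 fold change in Ang II_FI against Ang II was 1.62 ± 0.90 with library 3 and -0.98 ± 0.26 without it (SE, edgeR adjusted p = 0.576 and 0.542), and in Ang II_FI against Con 1.69 ± 0.90 with it and -0.92 ± 0.26 without it (edgeR adjusted p = 0.368 and 0.108). Whether hepatocyte RNA takes part in the value of library 3 was not tested.

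DESeq2 put more of the named pathway genes past its threshold with all libraries. Each of them was named for having its list's smallest edgeR p in a comparison of these same counts. Their DESeq2 calls are therefore no separate result about the pathway. These were Spry1 in Ang II_FI against Ang II (adjusted p = 0.0199), Spry4, Ptpn11, Myc and Cd44 in Ang II_FI against Con (adjusted p = 0.00334, 0.0161, 0.0160 and 0.0301), and Adam12, Ccnd1 and Cd44 in Ang II against Con (adjusted p = 0.00526, 0.0198 and 0.0243). DESeq2 called 42, 847 and 1099 of the 17376 tested genes in these 3 comparisons.

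Of 22 adaptors and kinases, 13 had values above 0 and 9 below in Ang II against Con. Gab1, a docking protein of ErbB signalling, had -0.38 ± 0.12 in that comparison (SE, edgeR adjusted p = 0.130). Ptpn11, the phosphatase SHP2, averaged 168 ± 22.3 CPM in Ang II_FI, 154 ± 10.1 CPM in Ang II and 130 ± 6.27 CPM in Con (SD, n = 4 each), and its log2 fold change in Ang II_FI against Con was 0.42 ± 0.11 (edgeR adjusted p = 0.0829, and 0.0520 without Ang II_FI library 3). The kinase Src had -0.54 ± 0.20 in Ang II_FI against Ang II (edgeR adjusted p = 0.432). Of 7 tested response genes, 5 had values above 0 in Ang II against Con and 6 in Ang II_FI against Con. Ccnd1 (cyclin D1) averaged 59.9 ± 11.3 CPM in Ang II_FI, 65.7 ± 4.22 CPM in Ang II and 46.1 ± 7.03 CPM in Con, with a log2 fold change of 0.50 ± 0.14 in Ang II against Con (edgeR adjusted p = 0.0848). Myc had 3.31, 2.15, 7.43 and 3.91 CPM in Ang II_FI, 1.87 to 2.37 CPM in Ang II and 1.05 to 2.52 CPM in Con, and its log2 fold change in Ang II_FI against Con was 1.22 ± 0.34 with library 3 and 0.84 ± 0.29 without it (edgeR adjusted p = 0.105 and 0.178).

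The genes nearest in pattern were found over the 11 libraries without Ang II_FI library 3, as the smallest root mean square difference between centred log2 CPM values among genes averaging at least 1 CPM. For Hbegf these were Rpl17-ps10 (0.140), C1qc (0.148), a complement gene of macrophages, and Tmem144 (0.149), beside a spread of Hbegf itself of 0.340. The nearest to Egfr were Il4ra (0.195), the interleukin 4 receptor, Adamts9 (0.208), a metalloprotease, and Fn1 (0.228), fibronectin, beside a spread of 0.423. Those nearest to Btc were Tet1 (0.278), Plxnb3 (0.283) and Slc18b1 (0.289), beside 0.637, and the nearest to Erbb3 were Mast2 (0.0947), Nnt (0.128) and Mlxipl (0.129), beside 0.243. Erbb2 lay nearest to Snhg16 (0.110), Terf2ip (0.113) and Borcs7 (0.122), beside 0.199, and Erbb4 nearest to Ice1 (0.156), Nhsl1 (0.174) and Ttc30b (0.175), beside 0.307. Nrg1 (Esrp2 0.607, Gm43305 0.623 and Atcay 0.696, beside 1.16), Tgfa (Cap1 0.499, Bcl2l1 0.528 and Tril 0.533, beside 0.816) and Ereg (Ttc9 1.04, Mki67 1.07 and Ccna2 1.09, beside 1.71) had larger differences beside larger spreads. These are descriptions of 11 libraries that fall into 3 groups.

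In the annotation used (GENCODE M21, GRCm38) all 10 genes are protein coding. Nrg1 (ENSMUSG00000062991) spans chromosome 8 from 31814551 to 32884029, Hbegf (ENSMUSG00000024486) chromosome 18 from 36504927 to 36515805, Tgfa (ENSMUSG00000029999) chromosome 6 from 86195223 to 86275719, and Erbb3 (ENSMUSG00000018166) chromosome 10 from 128567523 to 128589652. The ligands Ereg (ENSMUSG00000029377, 91074622 to 91093646), Areg (ENSMUSG00000029378, 91139599 to 91148432) and Btc (ENSMUSG00000082361, 91357261 to 91402994) lie near each other on chromosome 5. Egfr (ENSMUSG00000020122, 16752203 to 16918158) and Erbb2 (ENSMUSG00000062312, 98412470 to 98437716) are both on chromosome 11, and Erbb4 (ENSMUSG00000062209) spans chromosome 1 from 68032186 to 69108059. Exons of Nrg1, Ereg, Tgfa and Erbb2 overlap opposite-strand models over 4.66%, 3.42%, 1.82% and 0.17% of their exon length, and reads there cannot be told apart without strand.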

How the data were processed

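Raw gene counts, with 1 column for each library, were deposited by the authors. HISAT, featureCounts 1.5.0-p3, DESeq 1.8.3 and build GRCm38 are named per the submitters' processing notes, while how strand and multiply mapped reads were treated, and which annotation was used, is not given in the sources used here. Per the labels' protocols, TRIzol and an RNeasy kit are both named for the RNA, and a SMARTER mRNA kit made the libraries.

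From these counts, CPM (count over library total) with SD over 4 libraries, and log2 fold changes with standard errors, were computed. Genes were filtered by filterByExpr, scaled by TMM and tested with edgeR 4.0.16 (R 4.3.3) in 1 quasi-likelihood fit of 3 group means over 12 libraries, adjusted by Benjamini-Hochberg over 17376 genes, and fitted again without Ang II_FI library 3. The p-values set group differences against the spread between these samples, estimated over all groups in the fit. Of the gene IDs, 99.5% matched GENCODE M21, 27 symbols that read as dates were restored from the ID, and 13 empty columns were dropped. Exon lengths are the union of exons. Totals of 68874852 to 80624227 counts put 3 counts at 0.0372 to 0.0436 CPM. The procedure was run on simulated counts with known changes, drawn with the spread of all 12 libraries. Its outcome is not given here and is not used as support. No simulated library was set apart from its group, as Ang II_FI library 3 was here.

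The members and lists were chosen with earlier results of these data known. Named were all 10 members, each pathway list's gene of smallest p per comparison, any list gene past the threshold, and the 3 nearest patterns of each tested member. Alternatives were DESeq2 1.42.0, limma-voom (limma 3.58.1), other scalings, filters and designs, and each library left out in turn. The replicate block without Ang II_FI library 3 was added after seeing the data.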

Additional observations from a re-analysis of the deposited data

Results flagged for a closer look

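In groups of 4 libraries, 6 values of the 10 genes lay so far from the rest that their gap to the nearest library, divided by the group's range, passed Dixon's critical value of 0.829. Such a gap arises by chance in about 1 of 20 groups, and 29 groups were examined. The largest 3 in CPM came from Ang II_FI library 3, in which the 15 hepatocyte markers summed to 24333 CPM: Egfr had 30.66 CPM there and at most 3.62 CPM in the other Ang II_FI libraries, Erbb3 had 40.13 CPM and at most 14.1 CPM, and Tgfa had 2.554 CPM and at most 0.516 CPM. The other 3 values stood alone above libraries with no count, where the gap over the range is 1.000 whatever the value, so that their distance says nothing beyond the counts. Areg had 0.06806 CPM in Ang II_FI library 4, from 5 counts, and 0.08631 CPM in Ang II library 1, from 6 counts. Ereg had 0.1718 CPM in Con library 3, from 12 counts.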

How the results depend on the processing

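Limits: Areg and Ereg had libraries with 0 counts, Nrg1 and Tgfa had as few as 8, and Ang II_FI library 3 raises the common biological coefficient of variation to 0.343, against 0.269 without it. Genes called in Ang II against Con (388) were 1099 by DESeq2, 190 with no low-count filter, and 90 to 683 with each library left out in turn, and of the set (1) 3 by DESeq2, 0 with no filter, 2 with only the Ang II and Con libraries in the fit, 0 without Ang II library 3 and Ang II_FI library 3 together, and 0 to 2 with each library left out. For Ang II_FI against Ang II (0 genes) they were 42 by DESeq2, 2 without both libraries 3, and 0 to 1 with each library left out, of the set 0 to 0. Those of Ang II_FI against Con (170) were 847 by DESeq2, 64 with no filter, 48 with only the Ang II_FI and Con libraries in the fit, and 41 to 220 with each library left out, and of the set (1) 3 by DESeq2, 0 with only those libraries, and 0 to 2 with each library left out. The causes were not tested. Limma-voom, other scalings and a minimum mean of 1 CPM kept these counts within 1.5 times.

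Some log2 fold changes changed sign, given here with the range over the 12 fits that each leave out 1 library. In Ang II against Con, Erbb3 was 0.012 with library totals, 0.014 by limma-voom and 0.013 without both libraries 3 (range -0.115 to 0.157). Errfi1 was -0.006 by limma-voom (-0.185 to 0.22), and Adam19 turned without Con 1 (-0.475 to 0.002). Between Ang II_FI and Ang II, Nrg1 was 0.157 by limma-voom (-0.522 to 0.477, turning without Ang II 1), Egfr -0.04 by limma-voom and -0.802 without both libraries 3 (-0.878 to 0.988), Tgfa -0.832 and Errfi1 -1.14 without both (-0.681 to 0.892 and -0.982 to 1.981), all 3 turning without Ang II_FI 3. Cd44 was 0.13 without both (-0.099 to 0.081) and Lrig1 -0.018 with library totals, and the ranges of Erbb4 (-0.166 to 0.062), Epgn (-0.98 to 0.287), Ccnd1 (-0.189 to 0.033) and Gab1 (-0.012 to 0.138) also held 0. Against Con, Ang II_FI differed without both libraries 3 by -0.163 for Egfr (-0.163 to 1.706), -0.923 for Errfi1 (-0.923 to 2.043) and 0.181 for Nras (-0.294 to 0.181), each turning without Ang II_FI 3, and Erbb2 by -0.018 to 0.218.

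The libraries share replicate numbers. Deviations from the group means of same-numbered libraries correlated at -0.0572 to 0.1045 over 12 pairs, 1 of them over 0.1. That pair was Ang II library 3 and Ang II_FI library 3, the libraries with the highest sums of hepatocyte markers. In 8 of 24 cases a library correlated best with its own number in another group. These values cannot tell whether same-numbered samples were handled together. With the replicate block 124 genes were called in Ang II against Con and 61 in Ang II_FI against Con, and of the set 0 in Ang II against Con. Without Ang II_FI library 3, Egfr in Ang II against Con lost its call under the block (0.71, edgeR adjusted p = 0.0668). With the replicate block and all 12 libraries, Tgfa in Ang II_FI against Ang II was -0.054 and Cd44 0.004. With the replicate block and without Ang II_FI library 3, a fit added after seeing the data, 2 genes were called in Ang II_FI against Ang II, where Egfr was -0.82, Tgfa -0.716, Errfi1 -0.975, Cd44 0.085 and Epgn 0.724. Against Con, Egfr was then -0.108, Errfi1 -0.976 and Nras 0.147 in Ang II_FI, and Errfi1 was -0.001 in Ang II.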
